A study of Mus musculus with 112 samples.

Results

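The 88 nuclear genes of the respiratory chain were followed in the gastrocnemius, the large calf muscle, after 3 weeks in a cast. They were all the symbols starting with Nduf, Uqcr, Cox4 to Cox8 or Atp5 in the count tables, with 6 pseudogene symbols left out, and they made up 88 of 32544 symbols. By symbol, 45 belonged to complex I, 8 to complex III, 18 to complex IV and 17 to complex V. The animals were 56 Diversity Outbred mice of 16 weeks, an outbred stock in which each animal has its own genotype, and a single hind limb of each was immobilized. The libraries formed 4 groups of 28, the immobilized limbs and the control limbs of males and the immobilized limbs and the control limbs of females. The right limb was the immobilized one and the left the control in every mouse, so side and treatment cannot be told apart. The control limb came from an animal that carried a cast on the other side. Stranded total RNA, depleted of ribosomal RNA, was sequenced.

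The respiratory chain passes electrons from NADH and succinate to oxygen through complexes I to IV, and the proton gradient this builds drives ATP synthesis by complex V. All but complex II combine subunits made from nuclear genes with a small core encoded by the mitochondrial genome, so both genomes have to be expressed together. Muscle fibres are rich in the chain. Its nuclear genes are known targets of the nuclear respiratory factor Nrf1 and of the ETS factor Gabpa. They are also known targets of the ERR receptors with their coactivator Ppargc1a.

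Total counts per library ran from 1716485 to 9995936 with a median of 4395118. Levels are given as CPM, counts scaled to 1000000 per library on effective library sizes. In 10 libraries, 5 immobilized and 5 control limbs of 10 different mice (3 males and 7 females), the skeletal actin gene Acta1 was below 50% of its median of 31492 CPM. The summed level of the 88 genes was 7427 to 18252 CPM in these libraries, against 15937 to 38079 CPM in the other 102. All 6 adipocyte markers, all 7 macrophage markers and all 9 lymphocyte markers were detected in the tables. The adipocyte sum had a median of 2601 CPM in the libraries low in Acta1 and 222 CPM in the others, the macrophage sum 413 and 76.8 CPM, and the lymphocyte sum 373 and 1.46 CPM. The sum of the brown adipocyte markers Ucp1 and Cidea had medians of 144 and 1.72 CPM. In the control limb of male 52 the muscle signature was nearly absent, with 3.45 CPM of Acta1. That library had 16582 CPM of adipocyte markers and 928 CPM of brown adipocyte markers. The main results are therefore also given for the 46 mice in which neither limb was low in Acta1. Other tissue was not absent from these mice. The adipocyte sum still reached 3907 CPM (female 47, immobilized limb) and the macrophage sum 1252 CPM (male 31, immobilized limb). The brown adipocyte sum reached 1439 CPM (male 13, control limb).

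Most nuclear respiratory chain genes lay slightly lower in the immobilized limb, and few of them passed the test. The summed level of the set was 7427 to 38079 CPM with a median of 24557 CPM in immobilized limbs, against 9444 to 37947 CPM with a median of 26677 CPM in control limbs. Of 85 members tested, 70 had a negative log2 fold change averaged over the sexes, and the median was -0.09, beside 0.01 over all 11886 genes tested. At an adjusted p of at most 0.05 (edgeR's quasi-likelihood test blocked by mouse), 9 members were called, 10.6% of the set, beside 19.9% of all genes. The members called were 8 lower (beside 10.4% of all genes lower) and 1 higher (beside 9.58% higher), and calls were no more frequent among these genes than over all genes. DESeq2 called 11 members (beside 24.9% of all genes) and limma voom 9 (beside 22.2%). By complex the median was -0.07 for complex I, -0.15 for complex III, -0.08 for complex IV and -0.16 for complex V. In whole tissue, fewer muscle fibres in a sample and less RNA per fibre cannot be told apart. The summed slow-fibre markers moved the same way, with medians of 2585 CPM in immobilized and 3383 CPM in control limbs over 7 markers. The fast-fibre sum went the other way, with medians of 113768 CPM in immobilized and 99570 CPM in control limbs, as did the macrophage sum, with 101 CPM in immobilized and 70.8 CPM in control limbs. The sum of 4 general muscle fibre markers had medians of 58695 CPM in immobilized and 61734 CPM in control limbs. Their part in the result was not tested.

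**Figure D1:**
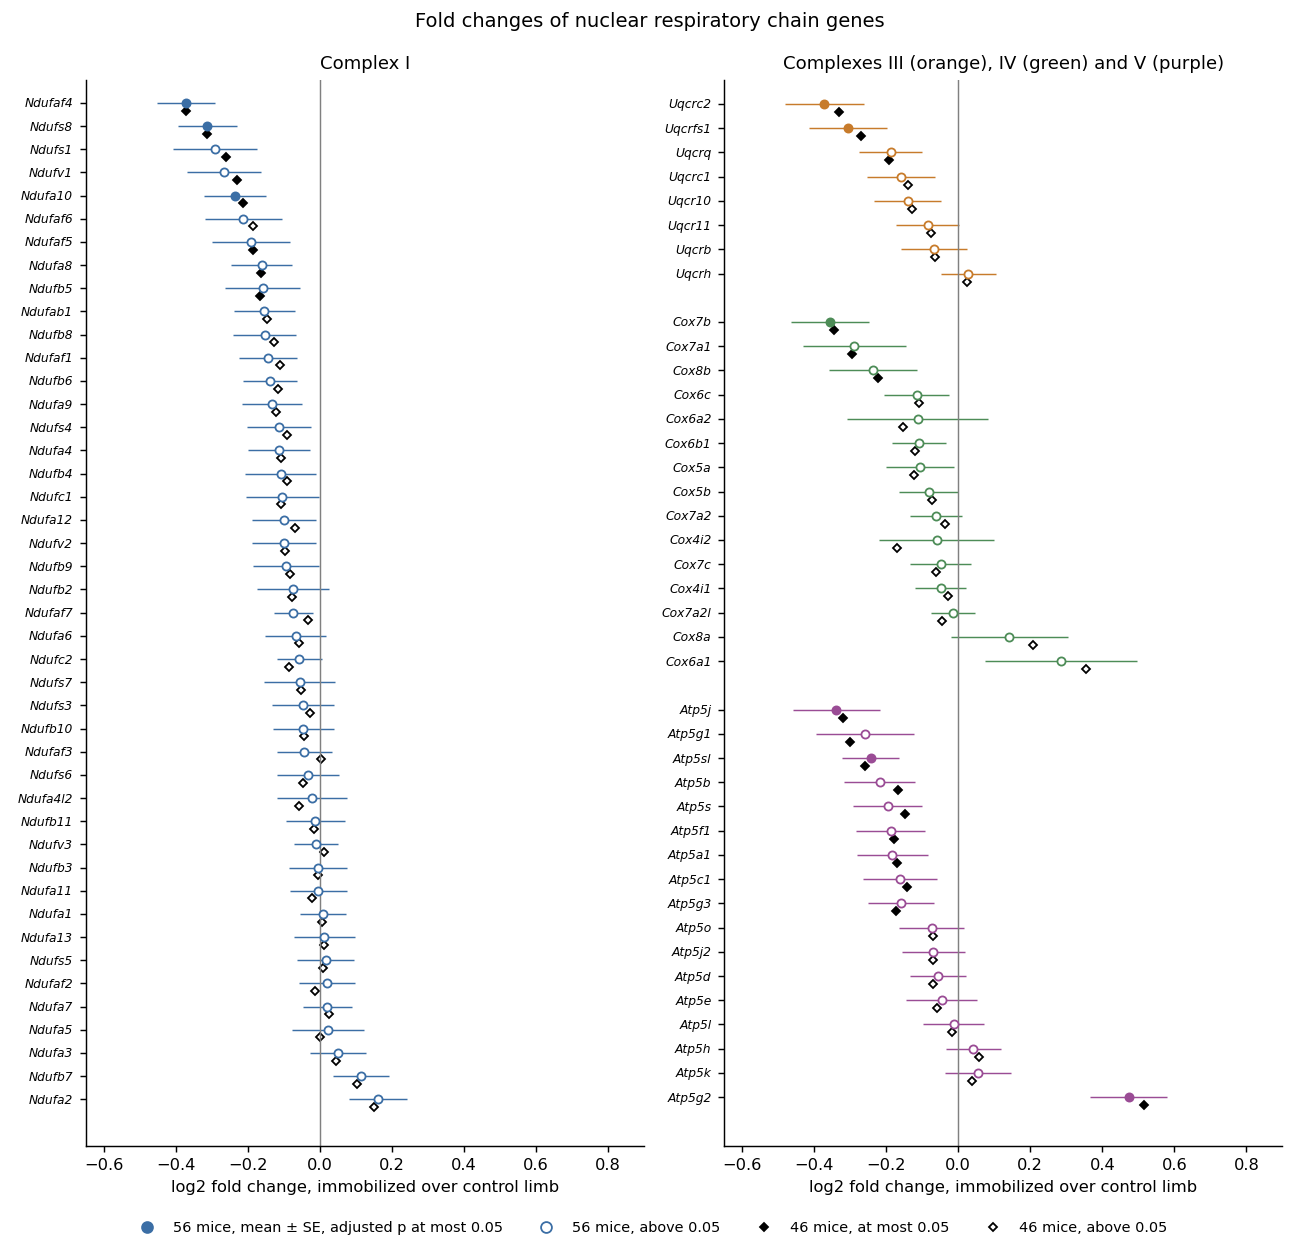
The log2 fold change of 84 of the 85 tested genes, immobilized over control limb averaged over the sexes, on the horizontal axis. Circles with bars are means ± SE over 56 mice, diamonds the values over the 46 mice with neither limb low in Acta1, and filled symbols mark an adjusted p of at most 0.05. Most points lie left of 0, and Atp5g2, at 0.47, has the only filled circle on the right.

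Complex I oxidizes NADH and is the largest of the complexes. Of its 45 genes, 3 fell, the assembly factor Ndufaf4, the core subunit Ndufs8 and the accessory subunit Ndufa10. Ndufaf4, which helps to build the complex and is no part of the finished enzyme, ranged from 8.48 to 62.7 CPM with a median of 31.4 CPM in immobilized limbs, against 8.22 to 64.0 CPM with a median of 39.9 CPM in control limbs. The ranges overlapped across animals, while within animals the immobilized limb was the lower one in 45 of 56. Its log2 fold change of -0.37 ± 0.08 (SE) had the smallest adjusted p of the set, 0.00104. Ndufs8, which carries iron-sulfur clusters in the arm that leads to the quinone site, ranged from 43.8 to 175 CPM with a median of 106 CPM in immobilized limbs, against 46.1 to 251 CPM with a median of 129 CPM in control limbs. It was lower in 41 of 56 mice, by -0.31 ± 0.08 (adjusted p = 0.00529). Ndufa10 had a median of 296 CPM in immobilized and 337 CPM in control limbs and was just past the threshold (-0.24 ± 0.09, adjusted p = 0.0437).

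Among the catalytic genes of complex I, those of the NADH-oxidizing tip were near the threshold. Ndufv1, which holds the flavin, had a log2 fold change of -0.27 ± 0.10 (adjusted p = 0.0537), and Ndufs1, the largest iron-sulfur subunit, had -0.29 ± 0.12 (adjusted p = 0.0654). The third gene of that tip, Ndufv2, stood at -0.10 ± 0.09. On the quinone side, Ndufs7 and Ndufs3 lay closer to 0 than Ndufs8, with Ndufs7 at -0.06 ± 0.10 and Ndufs3 at -0.05 ± 0.09. Genes of one enzyme thus differed in their fold changes, although the differences between them were not tested. The accessory Ndufb9, among the genes of the complex with high mean CPM, had 90.2 to 604 CPM with a median of 392 CPM in immobilized limbs, against 141 to 588 CPM with a median of 393 CPM in control limbs. Its log2 fold change was -0.09 ± 0.09. Of the 29 accessory subunits, 21 had a negative fold change and Ndufa10 alone was called. Ndufa4, now counted with complex IV, stood at -0.11 ± 0.09, and its hypoxia-induced relative Ndufa4l2, with medians of 7.69 CPM in immobilized and 7.62 CPM in control limbs, at -0.02 ± 0.10.

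Complex III hands electrons from ubiquinol to cytochrome c, and 2 of its 8 genes in the set fell. Uqcrc2, a core protein of the matrix side, ranged from 77.6 to 773 CPM with a median of 372 CPM in immobilized limbs, against 88.9 to 694 CPM with a median of 468 CPM in control limbs. It was lower in 39 of 56 mice, by -0.37 ± 0.11 (adjusted p = 0.0123). Uqcrfs1, the Rieske iron-sulfur protein that takes the electron from ubiquinol, ranged from 79.5 to 653 CPM with a median of 393 CPM, against 93.9 to 713 CPM with a median of 481 CPM in control limbs. Its log2 fold change was -0.31 ± 0.11 (adjusted p = 0.0359), lower in 39 of 56 mice. Groups overlapped for both genes, and the lowest values of each limb came from libraries low in Acta1. Uqcrc1, the other core protein and the gene of this complex with the highest mean CPM, stood at -0.16 ± 0.09 (adjusted p = 0.223). The small subunits Uqcrq and Uqcr10 had -0.19 ± 0.09 and -0.14 ± 0.09, and neither was called.

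**Figure D2:**
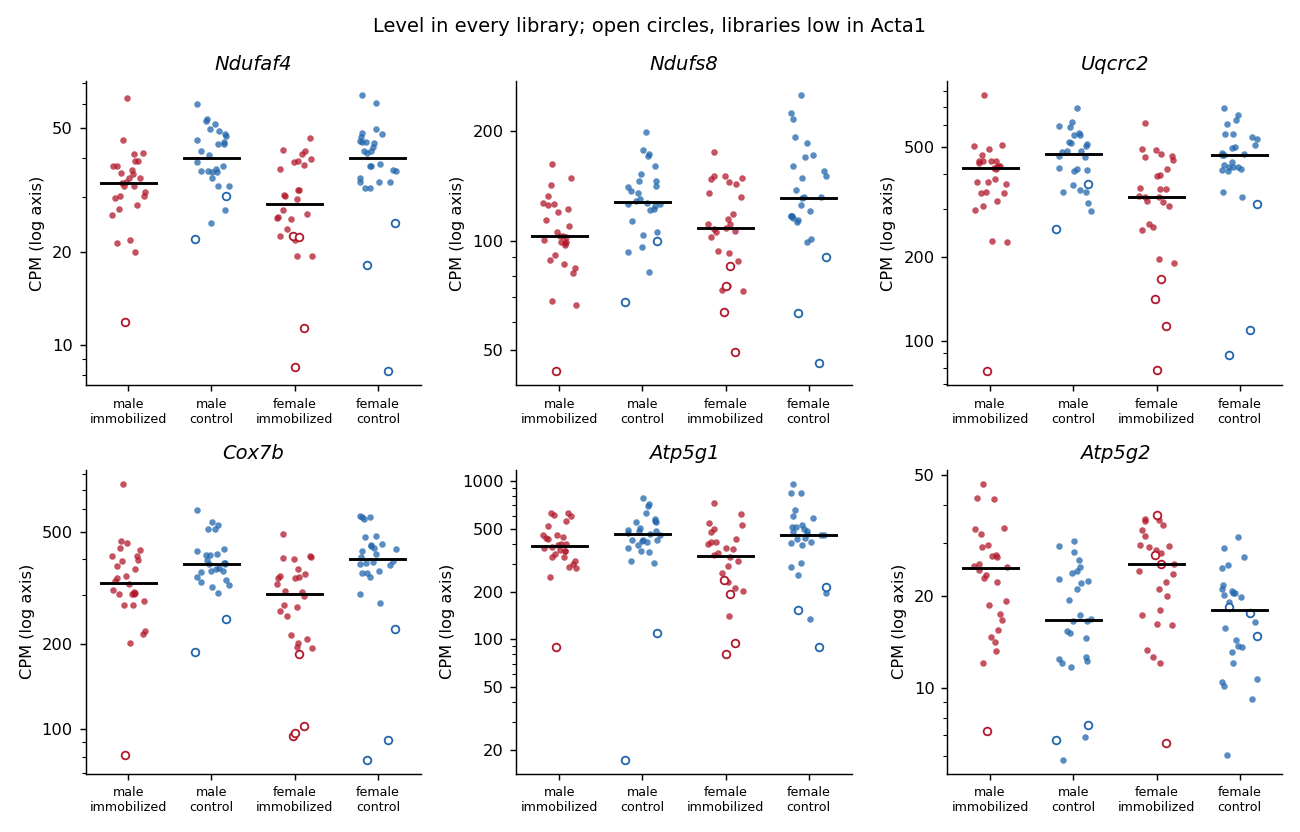
CPM of 6 members in every library on a log axis, for immobilized (red) and control (blue) limbs of males and females. Each point is a library, open circles are the 10 libraries low in Acta1 and bars are medians. The medians of Ndufaf4, Ndufs8, Uqcrc2, Cox7b and Atp5g1 are lower in the immobilized limbs of both sexes and that of Atp5g2 is higher, with wide overlap between limbs.

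Complex IV, cytochrome c oxidase, reduces oxygen, and its nuclear subunits surround the catalytic core made by the mitochondrion. Cox7b, a small membrane subunit, was the only member of the complex called. It ranged from 81.1 to 740 CPM with a median of 309 CPM in immobilized limbs, against 78.1 to 598 CPM with a median of 389 CPM in control limbs, and was lower in 41 of 56 mice (-0.36 ± 0.11, adjusted p = 0.0148). Its relative Cox7b2 had no count in any library, nor had the testis isoform Cox8c, and Cox6b2 was too low to be tested. The abundant structural subunits had small negative fold changes and were not called, with Cox4i1 at -0.05 ± 0.07, Cox5a at -0.11 ± 0.09 and Cox6b1 at -0.11 ± 0.08. Cox4i2, the isoform linked to low oxygen, was found at a median of 2.06 CPM in immobilized and 2.03 CPM in control limbs (-0.06 ± 0.16). Cox7a2l, which links complexes into supercomplexes, stood at -0.02 ± 0.06.

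Several subunits of complex IV come as a muscle isoform and a ubiquitous one. Per kilobase of exon, the muscle isoforms Cox6a2 and Cox8b stood far above Cox6a1 and Cox8a, with median levels in immobilized limbs of 1107 and 791 CPM per kb, against 44.7 and 67.6 CPM per kb for the ubiquitous genes. The muscle isoform Cox7a1, at 270 CPM per kb, was closer to Cox7a2, at 152 CPM per kb. All 3 muscle isoforms had negative fold changes, Cox7a1 -0.29 ± 0.14, Cox8b -0.24 ± 0.12 and Cox6a2 -0.11 ± 0.20. Of the ubiquitous ones, Cox6a1 (0.28 ± 0.21) and Cox8a (0.14 ± 0.16) were positive and Cox7a2 was -0.06 ± 0.07, and none of the 6 was called. The log2 ratio of muscle over ubiquitous isoform was lower in the immobilized limb in 39 of 56 mice for Cox6a2 over Cox6a1 (median change -0.31), 40 for Cox7a1 over Cox7a2 (-0.22) and 40 for Cox8b over Cox8a (-0.33). In the 46 mice with neither limb low in Acta1 these were 34, 35 and 35, with the same median changes.

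Of the ubiquitous isoforms, Cox6a1 and Cox8a were higher in the libraries low in Acta1 and Cox7a2 was lower. Cox6a1 was at 79.9 to 458 CPM with a median of 217 CPM in those 10 libraries, against a median of 27.7 CPM in the other 102, and Cox8a had medians of 184 and 38.1 CPM. Cox7a2 was at 60.4 to 127 CPM with a median of 98.0 CPM in those 10 libraries, against a median of 152 CPM in the others. Cox6a2 was at 0 to 425 CPM in the libraries low in Acta1 and at 451 to 1525 CPM in all others, with no overlap. The value of 0 CPM came from the control limb of male 52. These isoform levels thus differed between the libraries low in Acta1 and the others, some higher and some lower. The adipocyte, macrophage and lymphocyte sums were higher in the libraries low in Acta1, and their part in the limb difference was not tested.

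**Figure D3:**
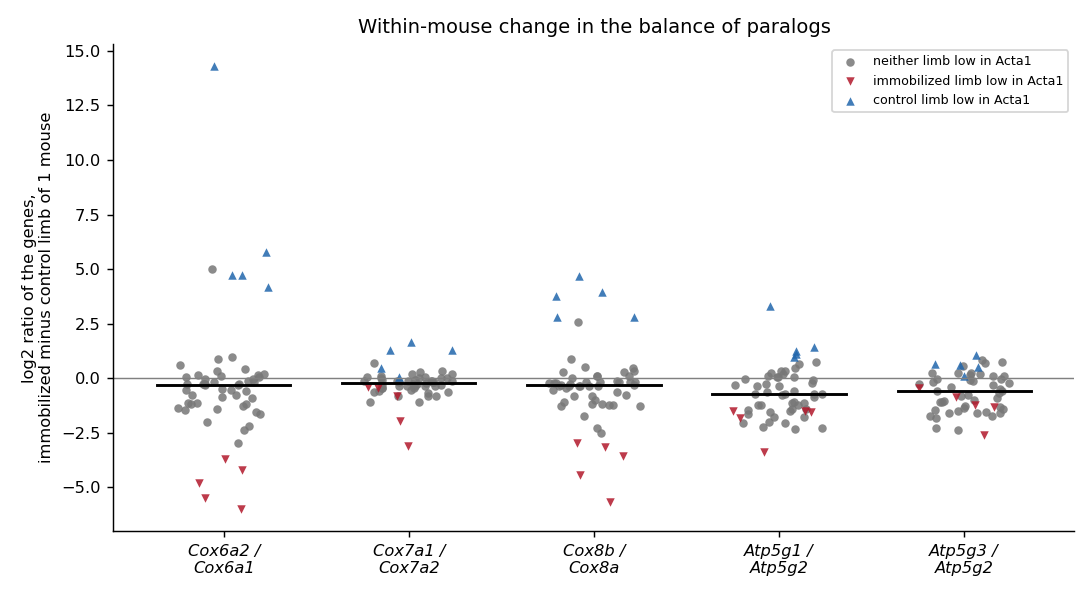
The change in the log2 ratio of paired genes, immobilized minus control limb of the same mouse. Each point is a mouse, triangles are mice with a limb low in Acta1 and bars are medians over 56 mice. All 5 medians lie below 0, the lowest at -0.74 for Atp5g1 over Atp5g2, and triangles hold both ends of each column.

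Complex V, the ATP synthase, couples a rotating membrane ring of c subunits to the catalytic F1 head. Of its 17 symbols, 2 fell and 1 rose. Atp5j, which makes coupling factor 6 of the stalk, ranged from 46.5 to 642 CPM with a median of 320 CPM in immobilized limbs, against 83.1 to 648 CPM with a median of 399 CPM in control limbs. It was lower in 42 of 56 mice (-0.34 ± 0.12, adjusted p = 0.0382). Atp5sl, which shares the prefix by history and is known as an assembly factor of complex I, was also lower (-0.24 ± 0.08, adjusted p = 0.0224). Atp5b, Atp5a1 and Atp5c1 of the F1 head had the highest mean CPM of the complex. Atp5b had 651 to 3762 CPM with a median of 2543 CPM in immobilized limbs, against 749 to 4258 CPM with a median of 2792 CPM in control limbs, and stood at -0.22 ± 0.10 (adjusted p = 0.105). Atp5a1 was at -0.18 ± 0.10 (adjusted p = 0.185) and Atp5c1, of the central shaft, at -0.16 ± 0.10 (adjusted p = 0.261).

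The c subunit is encoded by Atp5g1, Atp5g2 and Atp5g3, which differ in their targeting peptides and make the same mature protein. They did not move alike. Atp5g2, the least abundant of the trio, rose. It ranged from 6.62 to 46.9 CPM with a median of 25.1 CPM in immobilized limbs, against 5.81 to 31.4 CPM with a median of 17.1 CPM in control limbs. The ranges overlapped, but the immobilized limb was the higher one in 40 of 56 mice (0.47 ± 0.11, adjusted p = 0.00156). Atp5g1 had 80.7 to 722 CPM with a median of 368 CPM, against 17.2 to 963 CPM with a median of 457 CPM in control limbs, and was not called (-0.26 ± 0.14, adjusted p = 0.166). Atp5g3 stood at -0.16 ± 0.09 (adjusted p = 0.214). Atp5g2 made up a median of 2.49% of the summed c subunit CPM in immobilized limbs and 1.67% in control limbs. These shares were not scaled to exon length. Per kilobase of exon, the medians in immobilized limbs were 75.0 CPM for Atp5g1, 15.0 CPM for Atp5g2 and 244 CPM for Atp5g3. The log2 ratio of Atp5g1 over Atp5g2 was lower in the immobilized limb in 40 of 56 mice (median change -0.74). No source at hand says how reads shared with paralogs or processed pseudogenes were counted, and the split within this family, and within those of complex IV, is to that extent uncertain.

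To show what lies before these genes, the 250 bases upstream of the RefSeq start are given for the c subunit genes and for Ndufaf4, the member with the smallest p among those that fell. The sequences are RefSeq's, on GRCm38.p6, 5′ to 3′ on the strand of the gene. Capitals mark letters of the motifs GCGCA-N-GCGC (NRF1, with N for any base), CCGGAAG (ETS), AAGGTCA (ERR) or AAGATGGC (YY1) on either strand. For Atp5g1 and Atp5g2 the bases just after this start were not found in a GENCODE M21 transcript, so their windows rest on RefSeq's start alone. The windows are chr4:24897833-24898082 (plus strand), chr11:96075632-96075881 (minus strand), chr15:102671048-102671297 (minus strand) and chr2:73911327-73911576 (minus strand).
Ndufaf4: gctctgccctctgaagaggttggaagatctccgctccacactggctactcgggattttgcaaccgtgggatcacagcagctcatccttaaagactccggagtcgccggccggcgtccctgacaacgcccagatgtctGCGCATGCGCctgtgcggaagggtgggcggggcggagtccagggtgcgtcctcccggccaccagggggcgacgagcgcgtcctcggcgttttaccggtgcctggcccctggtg
Atp5g1: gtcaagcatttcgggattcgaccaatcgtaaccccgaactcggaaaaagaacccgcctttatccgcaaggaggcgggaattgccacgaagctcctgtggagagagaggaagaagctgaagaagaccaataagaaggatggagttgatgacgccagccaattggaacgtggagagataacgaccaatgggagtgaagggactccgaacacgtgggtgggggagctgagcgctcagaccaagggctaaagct
Atp5g2: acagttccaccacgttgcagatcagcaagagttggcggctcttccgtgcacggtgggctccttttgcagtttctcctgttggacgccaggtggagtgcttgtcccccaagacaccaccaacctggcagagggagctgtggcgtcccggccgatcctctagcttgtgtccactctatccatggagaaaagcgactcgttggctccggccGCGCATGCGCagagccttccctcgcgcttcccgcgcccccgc
Atp5g3: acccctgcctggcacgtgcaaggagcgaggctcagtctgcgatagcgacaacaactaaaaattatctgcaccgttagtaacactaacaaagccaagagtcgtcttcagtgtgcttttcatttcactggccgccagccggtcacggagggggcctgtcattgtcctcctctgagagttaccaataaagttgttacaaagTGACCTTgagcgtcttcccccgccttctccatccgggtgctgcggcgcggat
The NRF1 letters stood in the window of Ndufaf4, which fell, and in that of Atp5g2, which rose, with their first bases 113 and 42 bases before the start. Atp5g3 had the ERR letters on the opposite strand 52 bases before the start, and Atp5g1 had none of the motifs. Promoters were at hand for 73 of the 88 members. NRF1 letters were in 15.1% of them, beside 3.86% of 27025 promoters, ETS letters in 15.1% beside 7.05%, ERR letters in 6.85% beside 4.05% and YY1 letters in 0 of 73 beside 1.59%. A match in letters is a description and not a site.

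The inhibitor of complex V rose. Atpif1, which blocks the synthase from running backwards as an ATPase and whose symbol lies outside the rule, ranged from 14.5 to 105 CPM with a median of 23.6 CPM in immobilized limbs, against 9.18 to 48.4 CPM with a median of 16.7 CPM in control limbs. It was higher in 45 of 56 mice (0.56 ± 0.10, adjusted p = 0.000122). The rise was called in males (0.61 ± 0.14, adjusted p = 0.0124) and in females (0.51 ± 0.14, adjusted p = 0.0337), and in the 46 mice with neither limb low in Acta1 (0.51 ± 0.09, adjusted p = 4.17e-05). Atpif1 was also higher in libraries low in Acta1, at a median of 35.7 CPM beside 19.2 CPM in the others.

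Without the 10 mice that had a limb low in Acta1, most fold changes moved little, errors were smaller and more members passed. Among 46 mice, 24 members were called, 28.2% of the set beside 32.5% of all genes, 23 lower (beside 16.5%) and 1 higher (beside 16%). All 9 genes called in the 56 mice were among them. Complex V held 10 of the 24 (58.8% of 17 tested) and complex I 8 (17.8% of 45). Complex III held 3 (37.5% of 8) and complex IV 3 (20% of 15), beside 32.5% of all genes. The 10 of complex V include Atp5sl and Atp5s, which share only the prefix. Ndufaf4 was at -0.37 ± 0.05 (adjusted p = 1.33e-06) and Atp5g2 at 0.51 ± 0.11 (adjusted p = 0.000602). Calls were gained by Ndufs1 and Ndufv1 of the NADH tip, by the muscle isoforms Cox7a1 and Cox8b, and by Atp5a1, Atp5b and Atp5c1 of the catalytic head. Atp5g1 was among them at -0.30 ± 0.07 (adjusted p = 0.000886), beside -0.26 ± 0.14 in all mice, and Atp5g3 at -0.17 ± 0.07 (adjusted p = 0.0436). Also past the threshold were Atp5f1 of the peripheral stalk, the complex I genes Ndufaf5, Ndufb5 and Ndufa8, Uqcrq of complex III and Atp5s, another symbol outside the synthase proper, which stood at -0.20 ± 0.10 in all mice. The medians by complex were -0.07 for complex I, -0.13 for complex III, -0.11 for complex IV and -0.14 for complex V.

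Animals varied more than the limbs differed. The mean change in log2 CPM over the members within a mouse ranged from -2.23 to 1.22 with a median of -0.07, and was negative in 34 of 56 mice. In the 5 mice whose immobilized limb was low in Acta1 it was -2.23 to -0.46, and in the 5 whose control limb was low it was 0.28 to 1.22, so these mice held both ends of the range. In the other 46 mice it ran from -1.07 to 0.41 with a median of -0.07, negative in 29. The 13 transcripts of the mitochondrial genome were lower in 44 of 56 mice, with a median change of -0.46, and the change exceeded that of the nuclear genes in the downward direction in 44 of 56 mice. Among mice numbered 1 to 20 the nuclear set was lower in 15 of 20 (median -0.17), among those numbered 21 to 40 in 11 of 18 (-0.04) and among those numbered 41 to 59 in 8 of 18 (0.09). Without the mice that had a limb low in Acta1 this was 14 of 19 (-0.14), 9 of 15 (-0.04) and 6 of 12 (0.02). Fitted alone with all their mice, these blocks gave 8 called members (beside 9.69% of all genes), 0 (beside 0.00842%) and 0 (beside 0.0164%). Within the first block 2 members were called in females (beside 3.97%) and 0 in males (beside 0.0525%), and in the last 0 in males (beside 0.00821%). What the numbers stand for is not stated in the labels, and the differences between blocks were not tested.

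**Figure D4:**
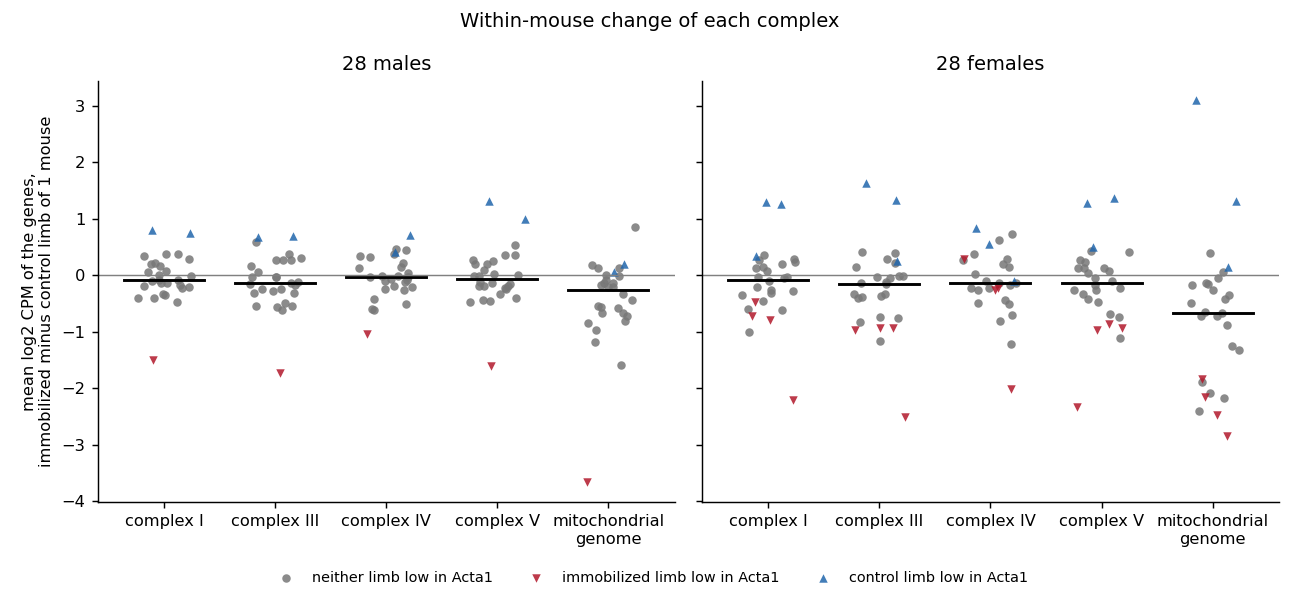
The mean change in log2 CPM of the genes of each complex and of the 13 mitochondrial genome transcripts, immobilized minus control limb of the same mouse, for 28 males and 28 females. Each point is a mouse, bars are medians, and triangles are mice with a limb low in Acta1. Medians of the nuclear complexes lie just below 0 and those of the mitochondrial genome farther down, and the triangles hold the ends of most columns.

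Across mice the members changed together. The change of each member was set against the mean change of the others, and Pearson's r over 56 mice had a median of 0.92 and was at least 0.9 for 49 of 85 members. Over the 46 mice without a limb low in Acta1 the median was 0.86. The closest were Cox5a (0.98), Atp5j2 (0.98) and Ndufb9 (0.98). The 8 members under 0.5 included the ubiquitous isoforms Cox6a1 (-0.46) and Cox8a (-0.42), along with Cox4i2, Ndufa4l2, Cox7a2l, Atp5g2 (0.35), Ndufaf7 and Ndufaf2. Over the 46 mice Cox6a1 was at 0.17, Cox8a at 0.29 and Cox7a2l at 0.78, so the negative values of the ubiquitous isoforms were not seen without the mice low in Acta1. The rule goes by symbol, so genes of the chain also lie outside it. Among genes outside the rule, the 5 whose change was most like the mean of the set were 2010107E04Rik (0.96), Usmg5 (0.95), Mrpl12 (0.95), Sdhb (0.95) and Sdhd (0.94). The first 2 are older symbols for small subunits of complex V that the rule misses. The last 2 encode subunits of complex II and Mrpl12 a mitochondrial ribosomal protein. Esrra reached 0.91 and Cycs 0.86, while the slow myosin gene Myh7 (0.59), Ppargc1a (0.59), Acta1 (0.57) and Atpif1 (-0.10) were less alike. Over the 46 mice Esrra was at 0.77, Cycs at 0.67, Myh7 at 0.34, Ppargc1a at 0.15, Acta1 at 0.14 and Atpif1 at 0.42. These correlations share libraries and depth and are descriptions.

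By sex, the fold changes were smaller in males and larger in females, and the difference was not called for any member. In males 0 of 85 members passed, beside 2.21% of all genes, and 4 had an unadjusted p below 0.05 (Atp5g2, Atp5sl, Ndufaf4 and Ndufs8). DESeq2 (beside 4.85% of all genes) and limma voom (beside 3.82%) each called 1, Atp5g2. In females 1 member passed, lower, beside 4.57% of all genes called and 2.47% called lower. DESeq2 called 6 in females (beside 9.63%) and limma voom 2 (beside 6.35%). The median fold change was -0.02 in males, with 55 of 85 negative, and -0.16 in females, with 77 of 85 negative. Ndufaf4 was the gene called in females, at -0.30 ± 0.11 in males (adjusted p = 0.137) and -0.44 ± 0.11 in females (adjusted p = 0.0234), lower in 22 of 28 males and 23 of 28 females. Ndufs8 (-0.31 ± 0.11 in males, -0.31 ± 0.12 in females) and Atp5g2 (0.48 ± 0.15 in males, 0.47 ± 0.15 in females) had nearly the same values in both sexes. Uqcrc2 had -0.25 ± 0.15 in males and -0.49 ± 0.16 in females, and Cox7b -0.23 ± 0.15 in males and -0.48 ± 0.15 in females.

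The male minus female difference was positive for 78 of 85 members, with a median of 0.12, beside 0.01 over all genes. In that test 0 members and 0 of 11886 genes were called (0% of all genes), 0 members had an unadjusted p of at most 0.05, and DESeq2 and limma voom also called 0 members. For Ndufaf4 the difference was 0.14 ± 0.16, for Uqcrc2 0.24 ± 0.22 and for Atp5g2 0.01 ± 0.21. The members move together across mice, so their shared sign does not count independent genes. Of the 10 mice with a limb low in Acta1, 3 were males and 7 females. In the mice without such a limb, 4 members passed in males (beside 9.13% of all genes), Ndufaf4, Ndufs8 and Atp5sl lower (beside 4.9% lower) and Atp5g2 higher (beside 4.23% higher). In females 14 passed there (beside 17.2%), 13 lower (beside 9.1%) and 1 higher (beside 8.1%), and the median difference was 0.08.

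In the control limbs, males and females were compared without pairing. Of 84 members tested, 1 was called, beside 1.73% of 10974 genes and 0.756% lower in males. Ndufaf5, an assembly factor that modifies Ndufs7, ranged from 9.36 to 42.2 CPM with a median of 32.1 CPM in male control limbs, against 10.4 to 74.0 CPM with a median of 43.9 CPM in female control limbs. The log2 fold change, male over female, was -0.46 ± 0.13 (adjusted p = 0.0481), and the highest female values exceeded every male one. The call held in 5 of 12 alternatives. It was lost with median-of-ratios size factors (adjusted p = 0.0543), with the library size lacking mitochondrial and top genes (0.0514), with limma voom (0.194), without males 15 and 16 (0.0596) and in each number block, and was kept without the mice low in Acta1 (adjusted p = 7.6e-05, beside 3.05% of all genes).

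The rest of the pathway was counted from fixed lists. Transcripts of the mitochondrial genome, which encode core membrane subunits, fell in 11 of 13 cases with a median of -0.52. mt-Nd5 had 269 to 13545 CPM with a median of 3667 CPM in immobilized limbs, against 550 to 13827 CPM with a median of 6233 CPM in control limbs (-0.84 ± 0.17, adjusted p = 0.000551). By p the next were mt-Atp8 at -0.96 ± 0.20, mt-Co1, which encodes the catalytic subunit of complex IV, at -0.74 ± 0.16, and mt-Nd4l at -0.99 ± 0.25. Of the list of electron carriers and genes of coenzyme Q synthesis, 8 of 13 fell and 0 rose. That list counts Cyc1, the cytochrome c1 of complex III, whose symbol lies outside the rule and which fell (-0.29 ± 0.10, adjusted p = 0.0382). Cycs, the mobile cytochrome c, had 37.5 to 443 CPM with a median of 188 CPM in immobilized limbs, against 61.8 to 422 CPM with a median of 248 CPM in control limbs (-0.41 ± 0.11, adjusted p = 0.00473). Coq9 (-0.41 ± 0.13), Coq3 (-0.25 ± 0.08) and Coq6 (-0.22 ± 0.07), all of coenzyme Q synthesis, fell as well. Of the 4 genes of complex II, 1 fell, the iron-sulfur subunit Sdhb (-0.32 ± 0.11, adjusted p = 0.0265), and all 4 were called lower without the mice low in Acta1.

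Of 37 assembly factors outside the symbol rule, 10 fell and 1 rose. Timmdc1, a builder of the membrane arm of complex I, was at -0.28 ± 0.07 (adjusted p = 0.00416), Atpaf2, a chaperone of the F1 head, at -0.23 ± 0.06, Bcs1l, which inserts the Rieske protein, at -0.27 ± 0.07, and Taco1, a translation activator of mt-Co1, at -0.38 ± 0.11. The copper chaperone Cox17 rose (0.20 ± 0.06, adjusted p = 0.0248). Of the 9 regulators, 5 fell. They were Gabpa (-0.32 ± 0.07, adjusted p = 0.00105), Esrrg (-0.81 ± 0.20), Ppargc1a (-0.61 ± 0.16), Esrra (-0.32 ± 0.09) and Ppargc1b (-0.36 ± 0.12). Nrf1 stood at -0.01 ± 0.06 (adjusted p = 0.980) with medians of 10.5 CPM in immobilized and 10.6 CPM in control limbs. Set beside the 19.9% of all genes called, these lists had 84.6% for the mitochondrial genome and 25% for complex II. The carriers and coenzyme Q genes, with Cyc1 among them, had 61.5%. The assembly factors outside the rule had 29.7%, the regulators 55.6% and the members of the set 10.6%. The members include assembly factors of their own, so that share is not one of subunits alone.

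**Figure D5:**
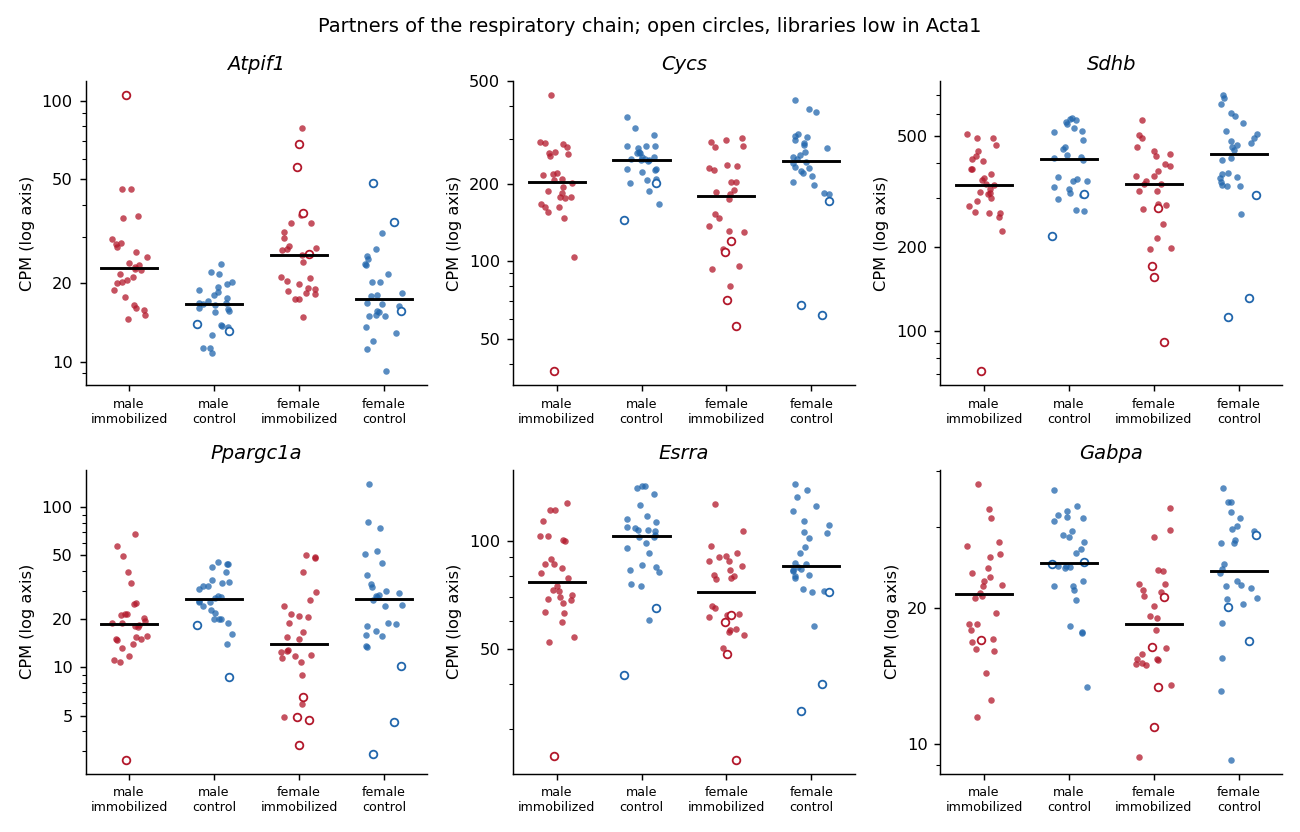
CPM of 6 partners of the chain in every library on a log axis, for immobilized (red) and control (blue) limbs of males and females, with medians as bars and the 10 libraries low in Acta1 as open circles. The medians of Cycs, Sdhb, Ppargc1a, Esrra and Gabpa are lower in the immobilized limbs of both sexes, and that of Atpif1 is higher.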

How the data were processed

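The authors deposited raw read counts per gene symbol, whole numbers in 1 table for females and 1 for males, and 0 rows name no gene. The aligner and counting tool were not given in the sources used here, nor was the genome build. RNA was extracted with a fibrous tissue kit and libraries were stranded and depleted of ribosomal RNA, per the labels' protocols. Groups came from the labels. No pair of the 112 libraries held identical counts. Among 1512 pairs within groups the lowest chi-square per degree of freedom was 9.53, so none was counted as a copy.

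Both limbs of a mouse share its number. The correlation of their deviations from the group means had a median of 0.364 (0.00661 between mice) and exceeded 0.1 in 45 of 56 mice. On 150 genes, 54 mice matched their own limb best, and males 15 and 16 were kept as labelled.

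Genes passing edgeR's filter were fitted with edgeR 4.0.16 (R 4.3.3), TMM, with a term per mouse and an immobilization effect per sex, averaged for the main result. Control limbs of the sexes were compared unblocked, and since each sex has its own table, sex and table cannot be told apart. p-values were adjusted by Benjamini-Hochberg over all genes tested, with a threshold of 0.05. SE is the fold change over the root of F. Log2 CPM used a prior count of 2, and a change within 0.001 counted as none. The p-values of the limb comparisons blocked by mouse measure the spread between mice in the difference of their limbs. Those of the control limbs between the sexes measure the spread between mice in level. The fits were also run on simulated counts with known changes. Those counts had no mouse effect and no admixed tissue, so the pairing of limbs was not tested by them. Exon lengths for levels per kilobase were unions of GENCODE M21 exons and matched 87 members. Promoters were matched by symbol (70) or synonym.

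The members, lists and naming rule were chosen with earlier results of these data known. Named were the 5 members per complex with the smallest p, members called in either sex or in the sex comparisons, the 3 with the highest mean CPM per complex, catalytic and isoform members, and up to 4 genes per other list by smallest p. The fifth regulator, Cyc1 and the 15 genes called without the low Acta1 mice were added after their values were seen. So were the correlations of Esrra, Cycs, Myh7, Ppargc1a, Acta1 and Atpif1. Coq8a, Coq8b and Dmac1 were not analysed here, and 1 member is not reported here by name. Alternatives were DESeq2 1.42.0, limma 3.58.1 voom with and without quality weights, size factors by median of ratios, library sizes lacking mitochondrial and the top 10 genes, no filter, a mean of at least 1 CPM, no replicate block, each sex alone, subsets of mice, and complex medians with Ndufa4 moved to complex IV and assembly factors left out.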

Additional observations from a re-analysis of the deposited data

How the results depend on the processing

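Over 56 mice the count of 9 members called stayed between 6 and 11 under the other scalings, filters, DESeq2, limma voom, no replicate block (9) and without males 15 and 16. It was 29 with voom quality weights and 24 without the mice low in Acta1, where all genes had 3993 and 3814 calls beside 2371. Mice numbered 1 to 20, 21 to 40 and 41 to 59 gave 8, 0 and 0 members and 1108, 1 and 2 genes, with fewer mice in each fit.

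In females, with 1 as reported, the count was 0 without the low-count filter, 6 with DESeq2, 2 with voom, 15 with quality weights, 3 with no replicate block, 14 without the mice low in Acta1, 2, 0 and 0 in the number blocks and 0 with females fitted alone. In males, with 0 as reported, it was 1 with DESeq2, voom or no replicate block, 4 with quality weights, 4 without the mice low in Acta1 and 3 with males fitted alone. The count for the difference between the sexes stayed at 0 throughout. Ndufaf5 between control limbs gave 0 calls with median-of-ratios size factors, with the library size lacking mitochondrial and top genes, with voom, without males 15 and 16 and in each number block. The cause of these shifts was not tested.

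The medians by complex were negative under every alternative except in mice 41 to 59, where they were 0.10, 0.05, 0.11 and 0.07 for complexes I, III, IV and V. That fit kept all 18 mice, of which 12 had neither limb low in Acta1. The low limb was the immobilized one in females 41 and 42. It was the control one in females 44 and 48 and males 52 and 55, and the part of this imbalance was not tested. Signs also turned in that fit, with no call, for Atp5c1 (0.058), Atp5f1 (0.011), Atp5g1 (0.072), Atp5g3 (0.068), Atp5s (0.064), Cox7a1 (0.089), Cox8b (0.034), Ndufa8 (0.048), Ndufaf5 (0.0037), Ndufb5 (0.078) and Uqcrq (0.042). Of the 9 called members, Uqcrfs1, Atp5j and Ndufa10 lost their call without the filter, Atp5j without males 15 and 16 and Ndufa10 with the reduced library size. Ndufa10 and Atp5g2 were not called in mice 1 to 20, and none of the 9 in the later blocks. Atp5g2 stayed between 0.38 and 0.61 and was called in 10 of 13 alternatives. Leaving out single mice was not run. Low counts limit Ndufa4l2, Cox4i2, Ndufaf2 and Cox6b2.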

Other observations

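The control limb of male 15 matched the immobilized limb of male 16 best on 150 genes, and that of male 16 the immobilized limb of male 15. Without both mice 8 members were called, 7 lower and 1 higher, beside 9 with them.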
